A study of Mus musculus with 8 samples.

Results

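Basement membranes are thin sheets of matrix that underlie epithelia and endothelia and wrap muscle, fat and nerve cells. Laminins, trimers of 1 alpha, 1 beta and 1 gamma chain, assemble into a mesh at the cell surface, collagen IV trimers form another mesh beside it, and nidogens and the heparan sulphate proteoglycan perlecan link them. Mesenchymal cells such as fibroblasts also make and secrete many of these components. The genes described here are 10 such genes, taken by symbol from the deposited expression table: the collagen IV chains Col4a1, Col4a2 and Col4a5, the laminin chains Lama4, Lama5, Lamb1 and Lamc1, the nidogens Nid1 and Nid2, and Hspg2, which encodes perlecan. All 10 were found among the 31276 genes listed, and all 10 were among the 14215 genes that passed the filter on low values (a mean over the libraries at least 1 above the lowest value of the log2 scale).

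RNA was measured by RNA-seq in C3H10T1/2, an established mouse embryo-derived mesenchymal line that can take up several connective tissue fates, at passages 10 to 15. Each of the 8 libraries came from a line with a stable, FLAG-HA-tagged histone H3 transgene, expressed beside the cells' own histone H3 genes. The H3.3 transgenes were wild type (WT), K36A, K36I, K36L, K36M and K36R, and the H3.1 transgenes were K36M and K36R, where the letters give the lysine of the H3 tail and the residue that replaces it. There was 1 library per transgene, no untransduced line and no wild-type H3.1. The labels do not say which promoter drove the transgenes or whether a line was 1 clone. With no replicate of any transgene, the 3 lines with K36M or K36I, substitutions known to inhibit H3K36 methyltransferases, were set against the other 5, which carry WT, K36A, K36L or K36R in H3.3, or K36R in H3.1. Each p-value of this comparison therefore sets a difference against the spread between lines of different transgenes, part of which may be technical.

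Depth lay between 45448249 reads (H3.1 K36M) and 68020958 (H3.3 K36I), and the 45S ribosomal RNA gene Rn45s took 1.66% to 2.19% of reads in 6 libraries, and the most in the K36A (5.24%) and K36L (3.11%) lines. All 10 mesenchymal markers passed the filter, with 539001 to 726187 normalised reads in sum in the K36M and K36I lines and 719447 to 993282 in the others. Markers of epithelium and endothelium were uneven. Epcam had at most 2.19 normalised reads in any line and Pecam1 at most 20.5, while Cdh1, of epithelia, had 292 to 1065, and the endothelial genes Flt1 and Tek had 1639 to 3137 and 284 to 3228. Levels below are normalised reads (reads divided by 1 size factor per library) per kilobase of exon, so that genes can be compared, and differences are on the deposited log2 scale. In cultured lines measured in bulk, fewer cells that use a gene and less RNA per cell cannot be told apart.

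The K36M and K36I lines held more Col4a1, Col4a2, Lamb1 and Lama5 RNA than the other lines, and less Col4a5 and Nid2. The largest difference was that of Lama5 (2.65, SE 0.67), followed by Lamb1 (2.03, SE 0.37). Of the 10 genes, 4 rose and 2 fell (limma, adjusted p under 0.05), against 13.3% of all genes tested in either direction, 6.45% higher and 6.82% lower, and the 4 others did not pass. The called genes were the same 6 whose values did not overlap between the classes, as was the case for 21.5% of all genes tested. The median difference of the 10 genes was 0.34, against -0.01 for all genes, and their median absolute difference was 0.89, against 0.16. Because the 10 genes were chosen with earlier results of these data known, these shares and medians, here and below, are a description and not a test of the group. Over all genes, 917 were higher and 970 lower, or 1156 and 805 with library medians set equal, a scaling under which Nid1 also passed (0.93, adjusted p = 0.0430). Without H3.3 WT, or without H3.3 K36M, only 2 of the 10 genes rose, and without H3.1 K36M 4 fell, as given gene by gene below. Over all genes, 592 were higher without H3.3 WT and 511 without H3.3 K36M, fewer than the 917 with all libraries. Without H3.1 K36M, 1095 were lower, against 970 with all libraries.

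**Figure D1:**
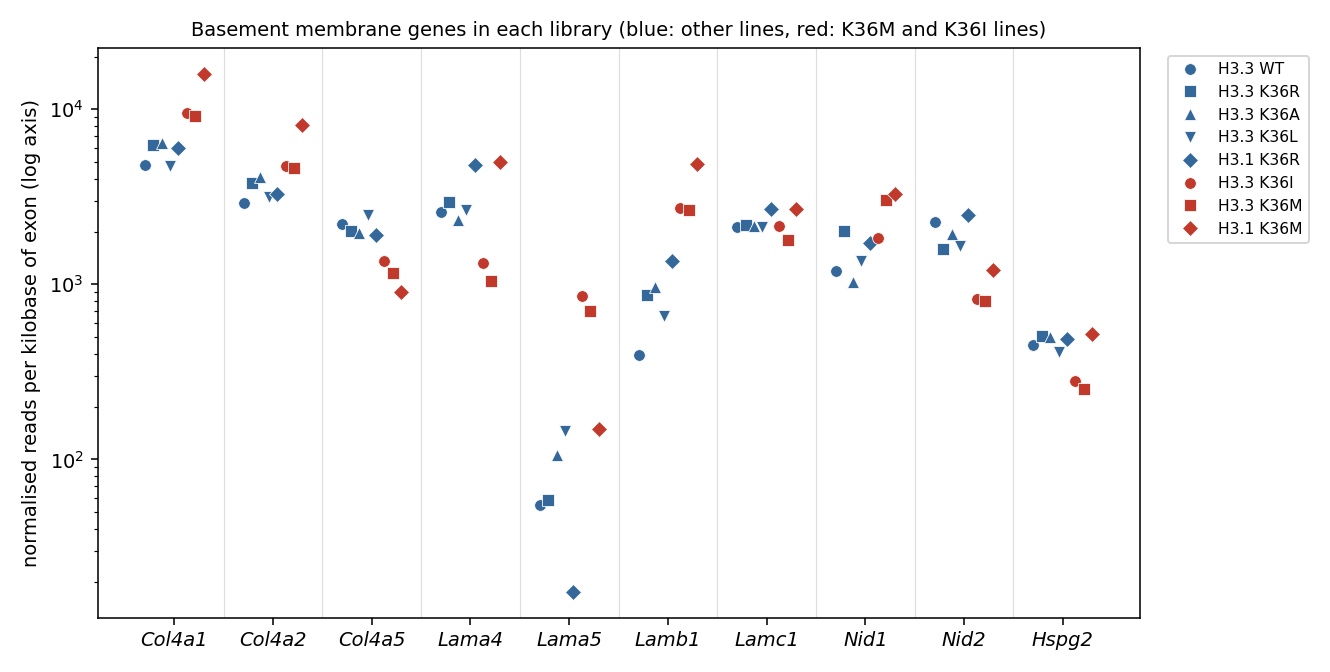
Level of each gene in each of the 8 libraries, in normalised reads per kilobase of exon on a log axis; red points are the 3 K36M and K36I lines, blue points the 5 others, and there is 1 library per point. Lama5 runs from 17.5 in H3.1 K36R to 863 in H3.3 K36I, whereas Lamc1 stays between 1800 and 2705.

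**Figure D2:**
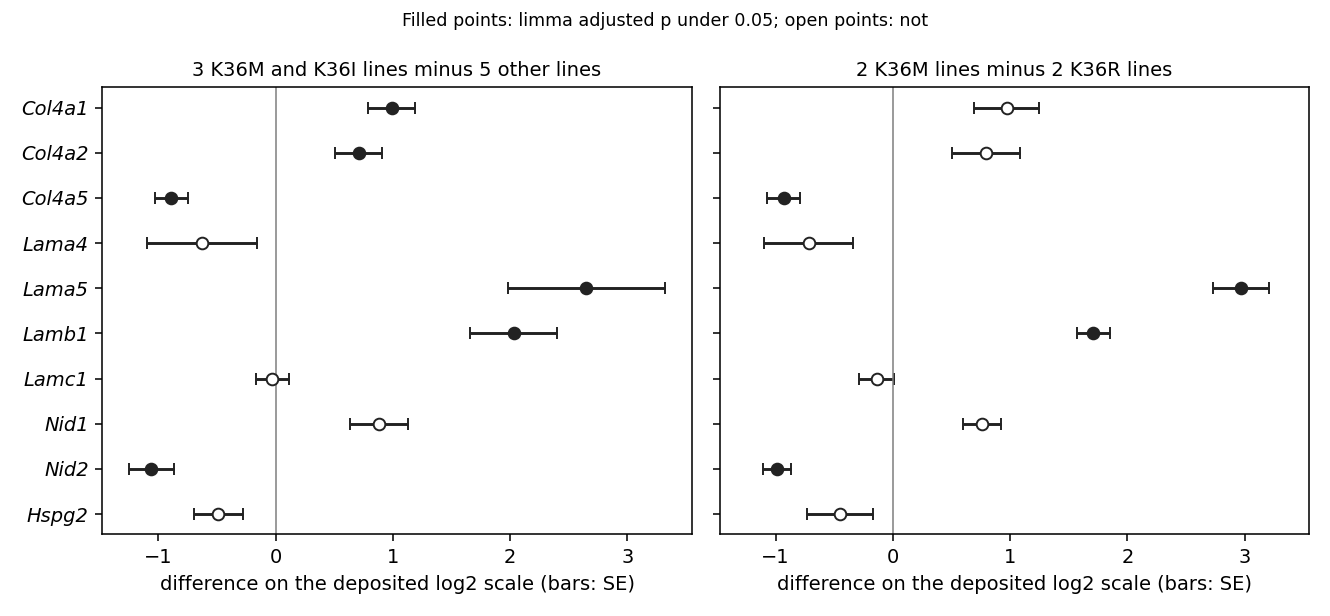
Difference of each gene on the deposited log2 scale with its SE, for the 3 K36M and K36I lines minus the 5 other lines (left) and for both K36M lines minus both K36R lines with histone as a term (right). Filled points passed at an adjusted p under 0.05 (limma): 6 genes on the left and 4 on the right.

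Col4a1 and Col4a2 encode the chains of the most widespread collagen IV trimer, made of 2 alpha1 chains and 1 alpha2 chain. They lie head to head on chromosome 8 (GRCm38; Col4a1 from 11198423 to 11312826 on the minus strand, Col4a2 from 11312805 to 11449287 on the plus strand), and their annotated exons overlap by 22 bases. The windows from 250 bases before to 50 after each start are printed from RefSeq (GRCm38.p6), 5′ to 3′ on each gene's own strand, because the windows of this pair overlap. Capitals mark the 78 bases that both windows hold, each as the reverse complement of the other (Col4a1 chr8:11312777-11313076, Col4a2 chr8:11312555-11312854).
Col4a1: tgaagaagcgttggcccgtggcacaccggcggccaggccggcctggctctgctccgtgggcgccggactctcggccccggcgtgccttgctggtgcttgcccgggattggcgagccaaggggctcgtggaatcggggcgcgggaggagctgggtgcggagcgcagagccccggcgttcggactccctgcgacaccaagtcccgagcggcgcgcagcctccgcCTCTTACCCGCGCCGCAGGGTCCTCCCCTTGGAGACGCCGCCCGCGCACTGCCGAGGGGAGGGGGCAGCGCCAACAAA
Col4a2: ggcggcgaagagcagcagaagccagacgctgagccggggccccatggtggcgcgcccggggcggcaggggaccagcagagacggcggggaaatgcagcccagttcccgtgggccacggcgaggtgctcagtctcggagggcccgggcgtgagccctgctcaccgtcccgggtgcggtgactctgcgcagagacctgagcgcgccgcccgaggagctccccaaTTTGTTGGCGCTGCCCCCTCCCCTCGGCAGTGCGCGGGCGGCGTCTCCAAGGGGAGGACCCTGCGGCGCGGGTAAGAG
The start sites of this annotation are 21 bases apart. The Col4a1 window holds 37 CpG dinucleotides and the Col4a2 window 33, against a median of 7 over the 32851 windows of the table.

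Col4a1 was the most abundant of the 10 genes per kilobase in every library. It stood at 9477 normalised reads per kilobase in H3.3 K36I, 9141 in H3.3 K36M and 15905 in H3.1 K36M. In the other lines it stood at 4814 (H3.3 WT), 6393 (H3.3 K36A), 4769 (H3.3 K36L), 6268 (H3.3 K36R) and 6016 (H3.1 K36R). Every K36M or K36I line thus lay above every other line, and H3.1 K36M lay furthest out. The rise was 0.99 (SE 0.20, adjusted p = 0.0136, limma), from 5652 ± 797 (SD, n = 5) to 11508 ± 3812 (SD, n = 3), and it passed without each library in turn (0.73 to 1.13). Without both the K36A and the K36L line, the libraries with the most Rn45s reads, adjusted p was 0.0553.

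Col4a2 was also highest in H3.1 K36M. It stood at 4748 normalised reads per kilobase in H3.3 K36I, 4625 in H3.3 K36M and 8162 in H3.1 K36M, against 2903 in H3.3 WT, 4111 in H3.3 K36A, 3151 in H3.3 K36L, 3815 in H3.3 K36R and 3300 in H3.1 K36R. The lines did not overlap, but H3.3 K36A lay close to the H3.3 K36M and K36I lines. The rise of 0.71 (SE 0.20) passed narrowly (adjusted p = 0.0482, limma). It did not pass in any fit without 1 of the 8 libraries (adjusted p = 0.0531 to 0.109), and it was 0.45 without H3.1 K36M.

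Col4a5, on the X chromosome, encodes the alpha5 chain, which assembles with alpha3 and alpha4 in the kidney glomerulus and with alpha6 in other tissues. It was lower where Col4a1 and Col4a2 were higher, at 1360, 1162 and 903 normalised reads per kilobase in H3.3 K36I, H3.3 K36M and H3.1 K36M. The other lines held 2204 (H3.3 WT), 1951 (H3.3 K36A), 2503 (H3.3 K36L), 2015 (H3.3 K36R) and 1920 (H3.1 K36R), so the lowest of them lay above the highest K36M or K36I line. Col4a5 fell by 0.89 (SE 0.14, adjusted p = 0.00470, limma) and passed without each library in turn (-1.03 to -0.74). The partner chains were near absent: Col4a3 had at most 97.3 normalised reads in any line, Col4a4 at most 63.6 and Col4a6 at most 39.9.

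As a share of all collagen IV chains per kilobase, Col4a5 made up 3.62% in H3.1 K36M, 7.77% in H3.3 K36M and 8.72% in H3.3 K36I, and 15.6% (H3.3 K36A) to 24.0% (H3.3 K36L) in the others. The 6 chains summed to 14946 to 24983 normalised reads per kilobase in the K36M and K36I lines and to 9934 to 12467 in the others. The ratio of Col4a1 to Col4a2 was 2.00 in H3.3 K36I, 1.98 in H3.3 K36M and 1.95 in H3.1 K36M, and 1.51 (H3.3 K36L) to 1.82 (H3.1 K36R) in the other lines. These shares and ratios carry no test and depend on the exon lengths used. With lengths from the comprehensive annotation the ratio was 1.51 in H3.3 WT and 1.80 in H3.3 K36M.

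**Figure D3:**
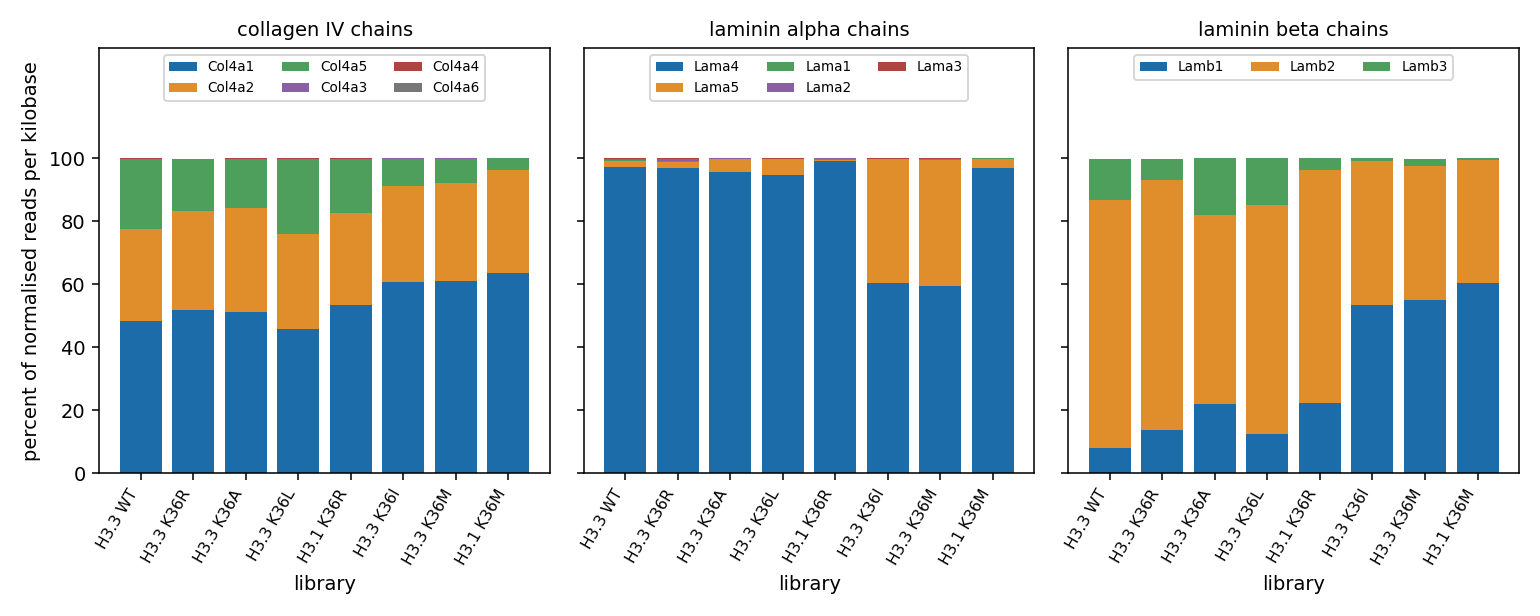
Share of each chain in the summed normalised reads per kilobase of its family in each library, for the 6 collagen IV, 5 laminin alpha and 3 laminin beta chains. Lama5 takes 39.4% (H3.3 K36I) and 40.1% (H3.3 K36M) of alpha chains and 2.93% in H3.1 K36M, whereas Lamb1 takes 53.4% to 60.5% of beta chains in all 3 of these lines, with exon lengths of the basic annotation.

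Laminins are named by their chains: the alpha chain carries most of the cell-binding sites, Lama4 being typical of vessels, fat and muscle and Lama5 of many epithelia and mature vessels. Lama5 (chromosome 2, 180176373 to 180225859) and Lamb1 (chromosome 12, 31265234 to 31329644) had the largest differences of the 10 genes. Their RefSeq windows are printed (GRCm38.p6, 5′ to 3′, 250 bases before to 50 after the start; Lama5 on the minus strand at chr2:180225810-180226109, Lamb1 on the plus strand at chr12:31265043-31265342). Capitals mark matches on either strand to the GC box GGGCGG and the CCAAT box CCAAT, letters found in many promoters.
Lama5: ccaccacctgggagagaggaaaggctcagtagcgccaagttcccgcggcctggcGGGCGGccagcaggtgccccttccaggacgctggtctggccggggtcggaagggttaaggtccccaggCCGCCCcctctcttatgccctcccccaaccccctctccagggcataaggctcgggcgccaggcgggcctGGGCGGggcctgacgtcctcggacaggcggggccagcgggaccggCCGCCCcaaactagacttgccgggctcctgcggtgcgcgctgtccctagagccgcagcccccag
Lamb1: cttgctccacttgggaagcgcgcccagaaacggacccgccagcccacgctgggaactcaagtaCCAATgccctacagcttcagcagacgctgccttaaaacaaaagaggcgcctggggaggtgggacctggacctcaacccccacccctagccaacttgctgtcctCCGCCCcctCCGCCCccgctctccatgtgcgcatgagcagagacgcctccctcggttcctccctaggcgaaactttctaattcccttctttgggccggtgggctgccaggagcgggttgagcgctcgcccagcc
Lama5 has 4 GC box matches and no CCAAT match, and Lamb1 has 2 GC box matches and 1 CCAAT match. Of all 32851 windows, 35.7% hold the GC box letters and 37.4% the CCAAT letters, on either strand. A GC box match was present in all 7 of the 10 genes that have a window in the table, and a CCAAT match in 5 of them (not in Lama5 or Hspg2). TATAAA was in none of these 7 windows and in 13.6% of all windows.

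Lama5 reached 863 (H3.3 K36I) and 707 (H3.3 K36M) normalised reads per kilobase. H3.1 K36M held less, 150. The other lines held 55.2 (H3.3 WT), 106 (H3.3 K36A), 145 (H3.3 K36L), 58.3 (H3.3 K36R) and 17.5 (H3.1 K36R). The classes did not overlap, yet H3.1 K36M lay next to H3.3 K36L, and Lama5 had the widest range of the 10 genes over the 8 lines. Lama5 rose by 2.65 (SE 0.67, adjusted p = 0.0339, limma). The call was lost without H3.3 K36I (2.20, adjusted p = 0.116) or H3.3 K36M (2.34, adjusted p = 0.129). It was also lost without the WT line (2.61, adjusted p = 0.0776) or the K36R line of H3.3 (2.63, adjusted p = 0.0699). Without H3.1 K36M the difference was 3.42 (adjusted p = 0.00857).

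Lama4 was the main alpha chain. It stood at 1321 (H3.3 K36I) and 1050 (H3.3 K36M) normalised reads per kilobase, below the 2600 of H3.3 WT, 2337 of H3.3 K36A, 2671 of H3.3 K36L and 2951 of H3.3 K36R. Both H3.1 lines were high and close to each other, at 4969 in K36M and 4825 in K36R. Over all 8 lines the difference of -0.63 (SE 0.47) did not pass (adjusted p = 0.433, limma). Without H3.1 K36M it was -1.32 (adjusted p = 0.0150), and among the 6 H3.3 lines alone -1.15 (SE 0.12, adjusted p = 0.00214).

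In most lines Lama4 made up nearly all alpha chain RNA per kilobase, from 94.6% in H3.3 K36L to 99.2% in H3.1 K36R, and 97.0% in H3.1 K36M. In H3.3 K36I and H3.3 K36M it made up 60.3% and 59.5%, with Lama5 at 39.4% and 40.1%. Lama1, Lama2 and Lama3 together stayed minor, none of them above 0.876% in any line. Which of Lama4 and Lama5 was higher in the H3.3 K36I and H3.3 K36M lines depends on the exon lengths. The ratio of Lama5 to Lama4 in H3.3 K36M was 0.673 with the basic annotation and 1.34 with the comprehensive one, which counts Lama4 as 12068 rather than 6046 bases, while in H3.3 WT it was 0.0212 and 0.0423.

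Lamb1 encodes the beta1 chain, shared by many laminins. It stood at 2742 normalised reads per kilobase in H3.3 K36I, 2658 in H3.3 K36M and 4843 in H3.1 K36M. The other lines held 397 (H3.3 WT), 969 (H3.3 K36A), 659 (H3.3 K36L), 869 (H3.3 K36R) and 1352 (H3.1 K36R), with H3.3 WT the lowest of all. Within each histone the K36M line thus lay far above the K36R line. Lamb1 rose by 2.03 (SE 0.37, adjusted p = 0.00865, limma), from 849 ± 356 (SD, n = 5) to 3414 ± 1238 (SD, n = 3), and passed without each library in turn (1.75 to 2.22).

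Lamb2 and Lamb3, the other beta chains, had lower means in the K36M and K36I lines. Lamb3, which belongs to the laminin of skin, fell by 2.67 (SE 0.43, adjusted p = 0.00537, limma). Its mean was 358 ± 212 normalised reads (SD, n = 3) in the K36M and K36I lines and 2957 ± 1262 (SD, n = 5) in the others. Lamb2 differed by -0.65 (SE 0.21) and did not pass (adjusted p = 0.0762). Lamb1 made up 53.4% to 60.5% of beta chain RNA per kilobase in the K36M and K36I lines and 7.94% (H3.3 WT) to 22.3% (H3.1 K36R) in the others. With comprehensive lengths these shares were 42.3% to 49.4% and 5.32% to 15.8%, and Lamb2, at 50.1% to 56.6%, was then the larger chain in the K36M and K36I lines. The beta chains summed to 4837 to 8012 normalised reads per kilobase in the K36M and K36I lines and to 4394 to 6241 in the others, ranges that overlap.

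Lamc1 encodes gamma1, the gamma chain common to most laminins, and it varied least of the 10 genes, over 0.58 on the log2 scale. It stood at 2167, 1800 and 2705 normalised reads per kilobase in H3.3 K36I, H3.3 K36M and H3.1 K36M, and at 2123 (H3.3 WT), 2140 (H3.3 K36A), 2114 (H3.3 K36L), 2179 (H3.3 K36R) and 2702 (H3.1 K36R). Both H3.1 lines were higher than the H3.3 lines, and the classes overlapped. The class difference was -0.03 (SE 0.14, adjusted p = 0.916, limma), with a sign that turned to 0.02 when library medians were set equal. Relative to Lamc1, Lamb1 stood at 1.27 to 1.79 per kilobase in the K36M and K36I lines and at 0.187 to 0.500 in the others. With comprehensive lengths, which count Lamb1 as 9917 rather than 5843 bases, these ratios were 0.809 to 1.14 and 0.12 to 0.32, below 1 in H3.3 K36I and H3.3 K36M.

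The nidogens, which bind the laminin gamma1 chain and collagen IV, differed in opposite directions. Nid2 stood at 820, 806 and 1206 normalised reads per kilobase in H3.3 K36I, H3.3 K36M and H3.1 K36M, and at 2280 (H3.3 WT), 1939 (H3.3 K36A), 1655 (H3.3 K36L), 1589 (H3.3 K36R) and 2492 (H3.1 K36R). The classes did not overlap, and Nid2 fell by 1.06 (SE 0.19, adjusted p = 0.00781, limma), passing without each library in turn (-1.24 to -0.96). Its exons overlap 437 bases of Rtraf on the opposite strand, listed as 2700060E02Rik, whose reads cannot be separated where counting ignored strand. That gene differed by -0.08 (SE 0.07) and did not pass (adjusted p = 0.526).

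Nid1 stood at 1830, 3016 and 3290 normalised reads per kilobase in H3.3 K36I, H3.3 K36M and H3.1 K36M, and at 1191 (H3.3 WT), 1033 (H3.3 K36A), 1352 (H3.3 K36L), 2006 (H3.3 K36R) and 1715 (H3.1 K36R). H3.3 K36R lay above H3.3 K36I, so the classes overlapped. The difference of 0.88 (SE 0.25) missed the threshold (adjusted p = 0.0537, limma) and passed without H3.3 K36I (1.14, adjusted p = 0.0286) or H3.3 K36R (1.01, adjusted p = 0.0383). It also passed with histone as a term (0.83, adjusted p = 0.0399) and with array weights (0.99, adjusted p = 0.0104). Nid1 did not pass without any other single library (0.72 to 0.95, adjusted p = 0.0558 to 0.177, limma). Among the H3.3 lines alone (0.79, adjusted p = 0.109) and without H3.3 K36A and H3.3 K36L (0.71, adjusted p = 0.185) it did not pass either. Per kilobase, the ratio of Nid1 to Nid2 was 2.23 to 3.74 in the K36M and K36I lines. It was 1.26 in H3.3 K36R and 0.522 to 0.817 in the other lines.

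Hspg2 encodes perlecan, whose heparan sulphate chains bind growth factors. It stood at 281 and 251 normalised reads per kilobase in H3.3 K36I and H3.3 K36M, below the 450 of H3.3 WT, 498 of H3.3 K36A, 413 of H3.3 K36L and 507 of H3.3 K36R. The H3.1 lines stood at 521 (K36M) and 489 (K36R), so the classes overlapped through H3.1 K36M alone. The difference was -0.49 (SE 0.21, adjusted p = 0.170, limma) over all lines. It was -0.80 (adjusted p = 0.00233) without H3.1 K36M and -0.79 (SE 0.10, adjusted p = 0.00379) among the H3.3 lines alone.

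K36M and K36R are the substitutions present in both histones, and they were compared over 4 libraries with histone as a term. This leaves 1 degree of freedom per gene for the spread, so SEs and p-values rest largely on the variance that limma draws from all genes. Lama5 (2.97, SE 0.24, adjusted p = 0.0139) and Lamb1 (1.71, SE 0.14, adjusted p = 0.0143) were higher in K36M, and Col4a5 (-0.93, SE 0.14, adjusted p = 0.0444) and Nid2 (-0.99, SE 0.12, adjusted p = 0.0288) lower (limma). These 4 of 10 compare with 4.50% of all genes in either direction, 2.15% higher and 2.34% lower. Col4a1 (0.97, SE 0.28, adjusted p = 0.167), Col4a2 (0.79, SE 0.29, adjusted p = 0.256) and Nid1 (0.76, SE 0.16, adjusted p = 0.0857) did not pass. Neither did Lama4 (-0.72, SE 0.38), Hspg2 (-0.45, SE 0.28) or Lamc1 (-0.14, SE 0.15). None of the 10 genes passed without the filter on low values, where 0 of all genes were called (3226 at an unadjusted p under 0.05), or when the histone term was left out. Leaving out any 1 of the 4 libraries, which also removes that term, left 0 to 2 of the 10 genes higher and 0 to 1 lower.

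The size of the K36M minus K36R difference was set side by side for each histone, with 1 library on each side. In H3.1 it was 1.40 for Col4a1, 1.30 for Col4a2 and -1.07 for Col4a5, and in H3.3 it was 0.54, 0.28 and -0.78. For Lama5 it was 2.56 in H3.1 and 3.38 in H3.3, for Lamb1 1.83 and 1.59, for Nid1 0.93 and 0.58 and for Nid2 -1.03 and -0.96. For Lama4 it was 0.04 in H3.1 and -1.47 in H3.3, and for Hspg2 0.09 and -0.99. The deposited scale shrinks differences where reads are few, so the 2 Lama5 values are not shrunk alike. Lama5 had 1711 (K36M) and 199 (K36R) normalised reads in H3.1, and 8052 and 664 in H3.3. Whether the class difference differed by histone was tested over all 8 lines with an interaction term (limma). No gene passed, 0% of 14215 (1582 at an unadjusted p under 0.05), whereas without the filter 798 genes passed, 0 of them among the 10. Of the 10 genes, Lama4 (1.19, SE 0.23, adjusted p = 0.241), Hspg2 (0.88, SE 0.19, adjusted p = 0.260) and Col4a2 (0.87, SE 0.28, adjusted p = 0.349) had an unadjusted p under 0.05.

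Between the histones themselves, in the same fit over the same 4 K36M and K36R libraries, 0 of the 10 genes passed (limma), against 0.0844% of all genes. Again with the variance drawn largely from all genes, 5 of the 10 and 1767 of all genes had an unadjusted p under 0.05. Lama5 was lower in H3.1 by value (-1.75, SE 0.24, adjusted p = 0.121), and Lama4 (1.46, SE 0.38, adjusted p = 0.289), Lamb1 (0.74, SE 0.14, adjusted p = 0.194), Nid2 (0.60, SE 0.12, adjusted p = 0.216) and Lamc1 (0.45, SE 0.15, adjusted p = 0.370) higher by value. Lama5 was -0.05 without H3.3 K36M and -3.44 without H3.3 K36R, in fits that also drop the substitution term and so mix substitution with histone.

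Each mutant was also set beside the single H3.3 WT library, which all these comparisons share, without a test. Differences of at least 1 were seen in 6 of the 10 genes in H3.1 K36M (10.3% of all genes), 5 in H3.3 K36M (8.69%) and 3 in H3.3 K36I (7.63%). They were seen in 2 in H3.1 K36R (3.33%) and in 1 each in H3.3 K36A (2.08%), H3.3 K36L (1.03%) and H3.3 K36R (1.76%). Lamb1 was higher than in H3.3 WT in all 7 mutants, by 0.70 (H3.3 K36L) to 3.54 (H3.1 K36M), with 1.09 in H3.3 K36R and 1.24 in H3.3 K36A. Lama5 ran from -1.27 in H3.1 K36R to 3.74 in H3.3 K36I, with 0.07 in H3.3 K36R, 0.83 in H3.3 K36A, and the K36L line at 1.25. The K36M and K36I lines of H3.3 lay within 0.32 of one another in 9 of the 10 genes, and Nid1 was 0.71 higher in K36M. The bound of 0.32 is the largest gap among the 9, that of Lama4. The share of all genes within it was not computed.

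**Figure D4:**
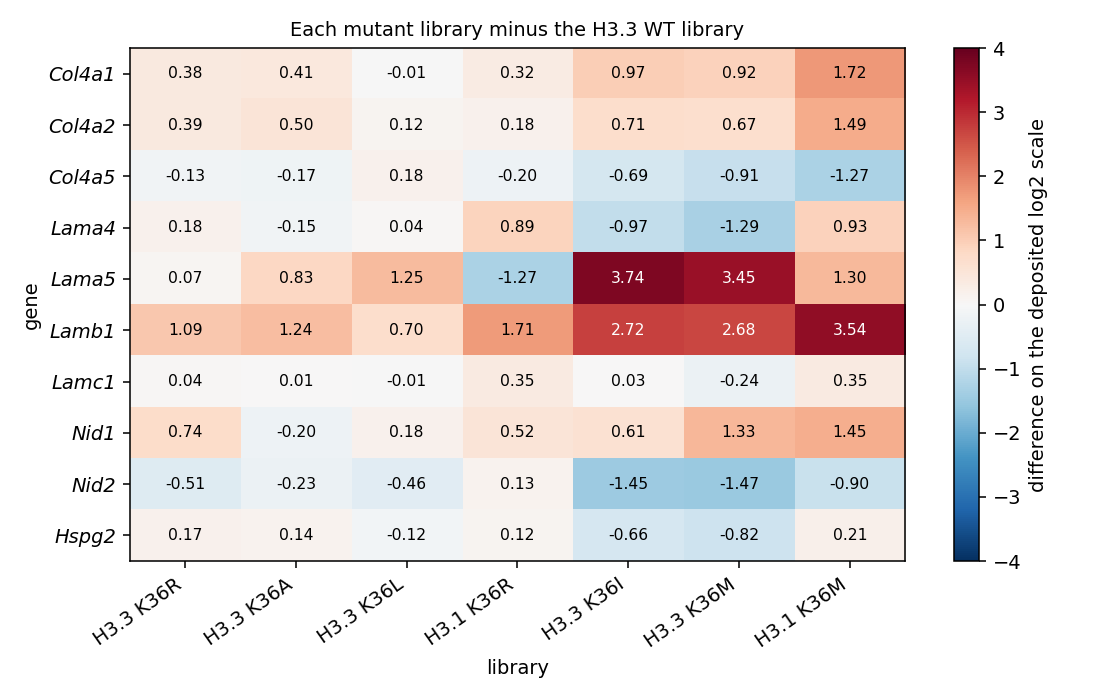
Difference of each gene between each mutant library (columns) and the H3.3 WT library on the deposited log2 scale, with 1 library on each side and no test. Lamb1 is positive in all 7 columns, and the H3.3 K36I and H3.3 K36M columns differ most in Nid1, at 0.61 and 1.33.

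Over the 8 libraries the genes varied in blocks. Correlations of deposited log2 values are given as a description over libraries that share classes, with no p. Col4a1 and Col4a2 had a Pearson r of 0.98. Among 14214 other genes, Col4a1 ranked 2 in closeness to Col4a2, and Col4a2 ranked 8 for Col4a1. Lamb1 had an r of 0.95 with Col4a1 and 0.89 with Col4a2, and Nid1 0.80 and 0.74. Col4a5 ran against all of these, at -0.97 with Col4a1, -0.92 with Col4a2 and -0.94 with Lamb1. Lama4, Hspg2 and Lamc1 formed another block (0.89 for Lama4 with Hspg2, 0.88 for Lama4 with Lamc1 and 0.66 for Lamc1 with Hspg2). Its edge is not sharp, as Nid2 had an r of 0.78 with Hspg2, 0.68 with Lama4 and 0.41 with Lamc1. Hspg2 ranked only 1276 in closeness to Lamc1. Lama5 ran against Nid2 (-0.94), Hspg2 (-0.85) and Lama4 (-0.81).

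**Figure D5:**
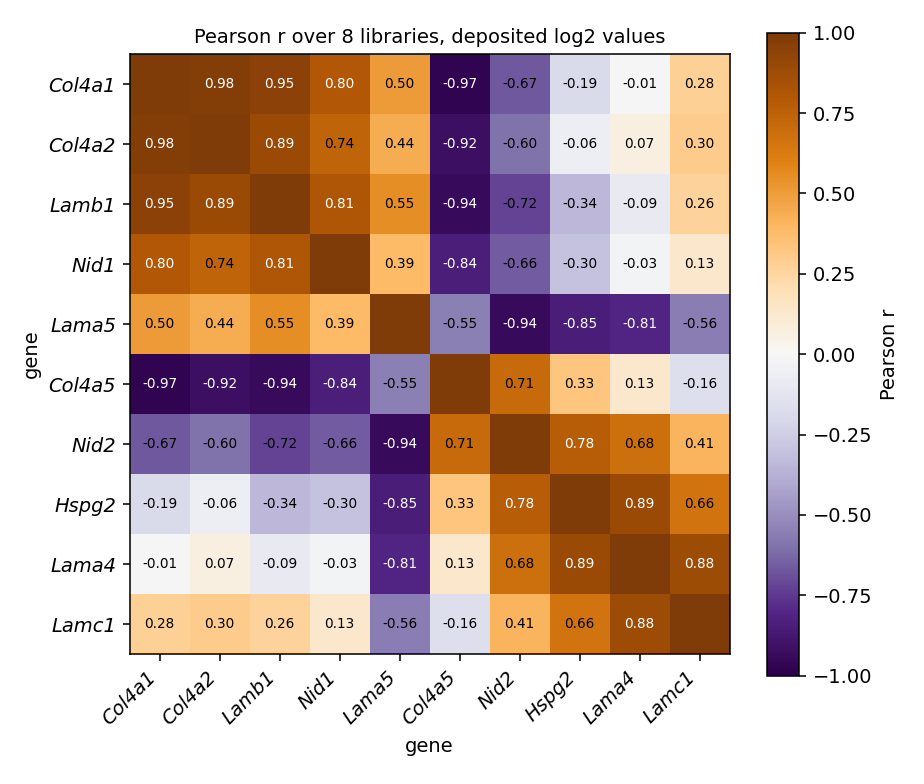
Pearson r between each pair of genes over the 8 libraries, from the deposited log2 values; colour runs from -1 to 1. Col4a1, Col4a2, Lamb1 and Nid1 correlate at 0.74 to 0.98 among themselves and at -0.97 to -0.84 with Col4a5.

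The genes most like Col4a1 over the 8 libraries, by Pearson r over all genes tested and leaving out predicted and small RNA genes, were Erich1 (0.989), Pdgfa (0.987) and Esd (0.986). Those most like Lamb1 were Cep290 (0.993), Fhl3 (0.990) and Abcc5 (0.988). Those most like Nid1 were Oplah (0.983), Serpinb6a (0.983) and Epb4.1l1 (0.976). Of these 9, Fhl3 had the largest class difference (1.03, SE 0.18, adjusted p = 0.00689, limma).

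Of the 19 genes next to or overlapping these loci, among those past the filter, 5 passed the test (26.3%, against 13.3% of all genes). Dld, which lies 1.63 kb from Lamb1, differed by 0.04 (SE 0.07, adjusted p = 0.750), whereas Fam110c, 185 kb away on the other side, rose by 2.36 (SE 0.33, adjusted p = 0.00301, limma), at a mean of 219 normalised reads. Both neighbours of Nid1 rose, Gpr137b by 0.72 (SE 0.11, adjusted p = 0.00508) and Lyst by 1.03 (SE 0.24, adjusted p = 0.0235), at 43.5 and 78.1 kb. Rab20, 4.23 kb from Col4a2, differed by 0.23 (SE 0.11, adjusted p = 0.206). Adrm1 and Rps21 beside Lama5 (-0.06 and -0.02), Shcbp1l beside Lamc1 (0.14) and Cdc42 and Usp48 beside Hspg2 (0.02 and 0.09) did not pass. Atg4a, 311 kb from Col4a5, fell by 0.54 (SE 0.11, adjusted p = 0.0111), and Nxt2 on the other side did not pass (-0.01). Marcks, the nearest tested gene below Lama4 at 1827 kb, fell by 1.26 (SE 0.30, adjusted p = 0.0265). Fam229b (-0.32) on the other side of Lama4, Ube2e2 (-0.49) and Saysd1 (-0.17) around Nid2 and the transcript 9530052E02Rik (-0.05) near Col4a1 did not pass.

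Other components of basement membranes moved both ways. Of 15 measured among 20 listed, 4 rose and 1 fell, with a median of 0.42, against 6.45% of all genes higher and 6.82% lower. Smoc2, a calcium-binding matrix protein related to SPARC, rose by 2.93 (SE 0.39, adjusted p = 0.00233, limma) to 17073 ± 3165 normalised reads (SD, n = 3), the other lines holding 2358 ± 1252 (SD, n = 5). Npnt, which encodes the integrin ligand nephronectin, rose by 2.71 (SE 0.36, adjusted p = 0.00239), and Col7a1, the collagen of anchoring fibrils, by 2.50 (SE 0.09, adjusted p = 4.72e-06). Fras1, of the complex that links epithelium to dermis, rose by 1.28 (SE 0.30, adjusted p = 0.0259), and Col15a1, a collagen of the basement membrane zone, fell by 1.01 (SE 0.24, adjusted p = 0.0263). Of 5 measured laminin chains outside the 10 genes only Lamb3 passed, and of the other collagen IV chains 0 of 2 measured passed, with Col4a3 at 0.38 (SE 0.15, adjusted p = 0.148) and Col4a4 at -0.26 (SE 0.13, adjusted p = 0.232).

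Among receptors that cells use to hold basement membranes, of 12 measured among 14, 0 rose and 1 fell (median -0.11), against 6.45% of all genes higher and 6.82% lower. Itgb4, the integrin chain of hemidesmosomes, fell by 1.45 (SE 0.34, adjusted p = 0.0245, limma), to 507 ± 285 normalised reads (SD, n = 3), the other lines holding 1478 ± 443 (SD, n = 5). Among genes for folding, modification and export of these proteins, 0 rose and 3 fell of 23 measured (median -0.12). These 3 of 23 compare with 13.3% of all genes called in either direction. Leprel1, the prolyl 3-hydroxylase known to act on collagen IV, fell by 2.86 (SE 0.29, adjusted p = 7.27e-04). It had 6.81 to 18.4 normalised reads in the K36M and K36I lines and 292 to 825 in the others. Lepre1, the prolyl 3-hydroxylase of fibrillar collagens, fell by 0.52 (SE 0.10, adjusted p = 0.0119). Serpinh1, the collagen chaperone, fell by 0.43 (SE 0.07, adjusted p = 0.00741), to 63085 ± 1010 normalised reads (SD, n = 3), the other lines holding 84923 ± 2469 (SD, n = 5).

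Markers of other cells that make basement membrane were read beside these results. Of all genes tested, 13.3% passed in either direction, 6.45% higher and 6.82% lower. Of 10 endothelial markers 4 were measured and 2 fell, Erg (-2.47, SE 0.36, adjusted p = 0.00344, limma) and Tek (-2.41, SE 0.23, adjusted p = 6.23e-04). Erg had 0 to 3.40 normalised reads in the K36M and K36I lines and 114 to 613 in the others. The 10 summed to 2835 to 3186 normalised reads in the K36M and K36I lines and 4453 to 6416 in the others. Tek alone had 284 to 336 and 1489 to 3228, while Kdr had at most 7.60 in any line. Flt1 (0.04, SE 0.18, adjusted p = 0.926, limma) and Vwf (0.26, SE 0.23, adjusted p = 0.523), the others measured, did not pass. Of 10 epithelial markers only Cdh1 passed the filter (0.69, SE 0.26, adjusted p = 0.120), and the sum was 724 to 1246 against 348 to 829. Of 10 markers of parietal endoderm, a tissue that makes much collagen IV and laminin, Sox17 and Foxa2 were at 0 reads in every line, 6 were measured and only Pth1r passed (-2.25, SE 0.49, adjusted p = 0.0186), with sums of 4489 to 9117 and 7635 to 13111. Of 10 Schwann and glial markers 0 of 4 measured passed, S100b (-1.17, SE 0.37, adjusted p = 0.0709) and Ngfr (0.82, SE 0.45, adjusted p = 0.273) having the largest differences among them. Of 10 leukocyte markers 0 of 3 measured passed, led by Cd14 (0.80, SE 0.23, adjusted p = 0.0575) and Cd68 (0.41, SE 0.13, adjusted p = 0.0698). Of the 10 mesenchymal markers, all measured, 2 rose and 0 fell, but their median difference was -0.16. Those that rose were Cd44 (0.50, SE 0.12, adjusted p = 0.0325) and Twist1 (0.47, SE 0.10, adjusted p = 0.0189). The largest differences of this list were negative and did not pass, those of Col3a1 (-0.77, SE 0.43, adjusted p = 0.283, limma) and Col1a2 (-0.68, SE 0.19, adjusted p = 0.0521). The part of these differences in the results for the 10 genes was not tested.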

How the data were processed

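Expression was measured by RNA-seq in 8 libraries, 1 per transgene. The authors deposited log2 values, made from reads per gene by a variance-stabilising transformation after dividing each library by its size factor, so that gene length is not taken into account. Per the submitters' processing notes, DESeq2 (version not named), featureCounts 1.4.4, STAR 2.3.0e and Trimmomatic 0.32 were used with build mm10. For step order, settings, annotation and strand, nothing is stated in the labels or notes. The lowest value, 5.95, stands for 0 reads. Where reads are few, as for Leprel1 and Erg, differences on this scale are therefore smaller than log2 ratios of reads. Inverting the parametric form gave whole reads for 100% of values (within 0.001 reads). The size factor of a library was taken as its reads per normalised read.

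Genes were tested where their mean exceeded the lowest value by at least 1 (about 31.0 normalised reads), 14215 of 31276. Of the others, 8275 had 0 reads in every library. Differences were tested by limma 3.58.1 (R 4.3.3), two-sided, with the variance trended on mean level, and p-values were Benjamini-Hochberg adjusted over all genes tested and called at 0.05. Exon lengths and coordinates come from GENCODE M21 (basic set, GRCm38), and promoter windows from RefSeq (GRCm38.p6), which held 7 of the 10 genes. At these depths 3 reads were 4.41e-06% to 6.60e-06% of a library. Counting error depends on the reads of each gene and is larger where they are few, as for Leprel1 and Erg in the K36M and K36I lines. For the 10 genes, with 199 normalised reads or more in every library, the precision is set mainly by the number of lines.

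The 10 genes and the gene lists were chosen with earlier results of these data known. Named besides the 10 genes were up to 4 called genes per list with the largest difference, or the 2 largest where none passed, the 3 genes most like Col4a1, Lamb1 and Nid1, and the nearest tested gene on each side, of which 1 is not reported here. Col15a1, Epcam, Pecam1, Flt1, Vwf, Kdr, Sox17, Foxa2, Col1a2, Col3a1, Lamb2, Lama1, Lama2, Lama3, Col4a6 and Rn45s were named outside this rule after their values were seen. Alternatives covered the filter, scaling, log2 of normalised reads plus 1, the variance trend, array weights, added or removed terms and each library left out. Leaving out H3.3 K36A with H3.3 K36L, and lengths from the comprehensive annotation, were added after the data were seen.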

Additional observations from a re-analysis of the deposited data

Results flagged for a closer look

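Lamc1 in H3.1 K36R stood apart from the other 4 lines without K36M or K36I: its deposited log2 value was 14.34, against 13.99 to 14.03, and the gap to the nearest line was 0.88 of the whole range of these 5 lines. About 1 in 20 such groups would be singled out by chance if the lines were interchangeable, but H3.1 K36R is the only H3.1 line among these 5. H3.1 K36M had the same value, 14.34.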

How the results depend on the processing

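In the class comparison, 138 of 170 member results under alternative settings kept their direction and their side of the threshold. Lamb1, Col4a5 and Nid2 passed under every alternative run, and Col4a1 under all but the one without H3.3 K36A and H3.3 K36L. With histone as a term, with array weights and among H3.3 libraries only, 4 members fell, Lama4 and Hspg2 besides Col4a5 and Nid2. With histone as a term and with array weights 5 rose, Nid1 among them, and among H3.3 libraries 3 rose. All genes called numbered 2959 with histone as a term, 4074 with array weights and 2545 among H3.3 libraries. Without H3.3 K36A and H3.3 K36L, 2 members rose and 1171 genes were called. Leaving out each library in turn gave 2 to 3 members higher, 2 to 4 lower and 1021 to 2084 genes called, and Lamc1 at -0.18 to 0.11. With library medians set equal Lamc1 was 0.02.

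For K36M against K36R, no filter gave 0 members higher, 0 lower and 0 of all genes. No intensity trend gave 1 lower. Without the histone term 0 were higher and 0 lower, with 222 genes called. Leaving out each library, also without that term, gave 0 to 2 higher, 0 to 1 lower and 0 to 471 genes called (347 without H3.3 K36M), with Lama4 at -1.83 to 0.39, Lamc1 at -0.43 to 0.16 and Hspg2 at -0.96 to 0.06. For H3.1 against H3.3, 12 genes were called, and 0 without the filter or without the substitution term. Leaving out each library, which also dropped that term, gave 0 too, and Col4a1 ran from -0.33 to 1.07, Col4a2 from -0.35 to 0.96, Col4a5 from -0.75 to 0.32 (0.18 without H3.3 K36R), Lamb1 from -0.17 to 1.66 (-0.05 without H3.3 K36R), Nid1 from -0.52 to 0.42 (0.24 without H3.3 K36M), Hspg2 from -0.01 to 0.98, Lama5 from -3.44 to -0.05, Lama4 from 0.73 to 2.20 and Nid2 from 0.09 to 1.12. Without the filter, 798 genes and 0 members passed for a class difference that differs by histone. At a difference of at least 0.58 from H3.3 WT, which carries no test, there were 2 members in H3.3 K36A (6.08% of all genes), 9 in H3.3 K36I (16.3%), 2 in H3.3 K36L (3.87%), 9 in H3.3 K36M (17.4%), 2 in H3.3 K36R (5.49%), and in the H3.1 lines 8 for K36M (22.8%) and 3 for K36R (10.4%). Where 1 of the 4 K36M and K36R libraries was left out with a term, substitution and histone are mixed, so these ranges show neither difference alone. The cause of the other shifts was not tested. The labels give no replicate numbers to pair libraries by. With 1 library per transgene, the number of lines limits the precision for the 10 genes more than depth does.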
